A study of Brassica rapa with 18 samples.

Results

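In leaves of Brassica rapa seedlings, 16 genes that were already expressed without hormone stood several-fold higher 24 h after a spray of methyl jasmonate (MeJA) and were back near the mock level by 72 h. They were chosen by their group means. Counts were scaled to CPM, the share of a library's total count expressed per 1000000, and the log2 ratio at each time was the MeJA mean over the mock mean after adding 0.5 CPM to both. Of 41018 genes with Bra identifiers, 26436 had a mean of at least 0.5 CPM in at least 1 mock group, and 16810 of these reached a mean of at least 5 CPM in MeJA 24 h. A log2 ratio of at least 2 at 24 h left 278 genes. Among the 278, the log2 ratio at 72 h was under 0.5 in the 16 genes described here (5.76%), between 0.5 and 1 in 45 genes, and at least 1 in 217 genes. The values at 24 h and 72 h therefore selected these genes, and they are given as a description with no test.

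The samples were leaves of wild-type seedlings of the inbred line R-o-18, a Brassica rapa of the variety trilocularis, 10 days old at treatment. The spray held 50 µM MeJA with 0.1% Tween-20, or water with the same detergent as mock, and harvest followed after 10 min, 24 h or 72 h. The 6 groups were MeJA 10 min, mock 10 min, MeJA 24 h, mock 24 h, MeJA 72 h and mock 72 h, each with 3 biological replicates, 18 libraries in all. The labels' batch field coincides with the harvest time, so each contrast of MeJA with mock lies within 1 batch, and values of different times also differ in batch.

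Methyl jasmonate is a volatile derivative of jasmonic acid, the plant hormone of wounding. In plants it is converted to the isoleucine conjugate of jasmonic acid, which binds the receptor COI1, an F-box protein. The bound receptor directs JAZ repressor proteins to degradation, and this releases MYC transcription factors to act on wound and defence genes. JAZ genes and genes of jasmonate turnover are themselves targets of the pathway in Arabidopsis, so that a response can be followed by its own decline. In the mustard family, glucosinolates and their biosynthetic genes are well-known outputs of the hormone.

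The Bra identifiers of these 16 genes were not paired with gene names, so no function is given to any of them and leaf markers were not checked. No sequence was printed for the same reason. CPM are not divided by gene length and are therefore compared between samples, not between genes. In bulk leaf RNA, fewer cells of a type and less RNA per cell cannot be told apart.

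The 18 libraries held between 13505607 and 17796115 counts each, so that 0.5 CPM corresponds to 6.75 to 8.90 counts. The lowest count of any of the 16 genes in any library was 6. Some libraries stood apart from their replicates. In MeJA 10 min replicate 2, transcripts abundant in MeJA 24 h stood higher than in the other replicates. To show this, 20 genes were taken that averaged 50 CPM or more in MeJA 24 h and lay near silence (under 0.2% of the MeJA 24 h mean) in mock 10 min, and their median level in this library was 4.32% of the MeJA 24 h mean, against 0.265% in MeJA replicate 1 and 0.384% in MeJA replicate 3. The 1168 features with ENSRNA identifiers took 4.31% of its counts, against 1.35% and 1.77% in those replicates. Such a share was not particular to this library. It was 3.98% and 4.03% in MeJA 72 h replicates 2 and 3, and 4.42% to 5.80% in mock 72 h. In the MeJA 24 h libraries it was 1.47% to 2.38%, and in the mock 10 min libraries 1.87% to 3.00%. MeJA 24 h replicates 1 and 2 differed most of the 18 replicate pairs, with 26.9 as the chi-square over its degrees of freedom, and mock 10 min replicates 2 and 3 least, with 1.49.

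At 24 h the 16 genes stood higher with MeJA in every library. Their summed level was 480 CPM, 209 CPM and 404 CPM in MeJA replicates 1, 2 and 3, against 49.6 CPM, 62.1 CPM and 51.0 CPM in the mock replicates. In each of the 16 genes all 3 MeJA values lay above all 3 mock values. Such separation was found in 14.1% of the 26593 features that passed edgeR's filter on low counts, and all 16 genes passed that filter. Since the selection used this contrast, nothing is read from the count, which was also 16 without MeJA 24 h replicate 2 (18.9% of features). The ratio of the group means ran from 4.40 to 35.3, with a median of 6.43. The log2 ratio was at least 3 in 4 genes, between 2.5 and 3 in 4 genes and between 2 and 2.5 in 8 genes.

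**Figure D1:**
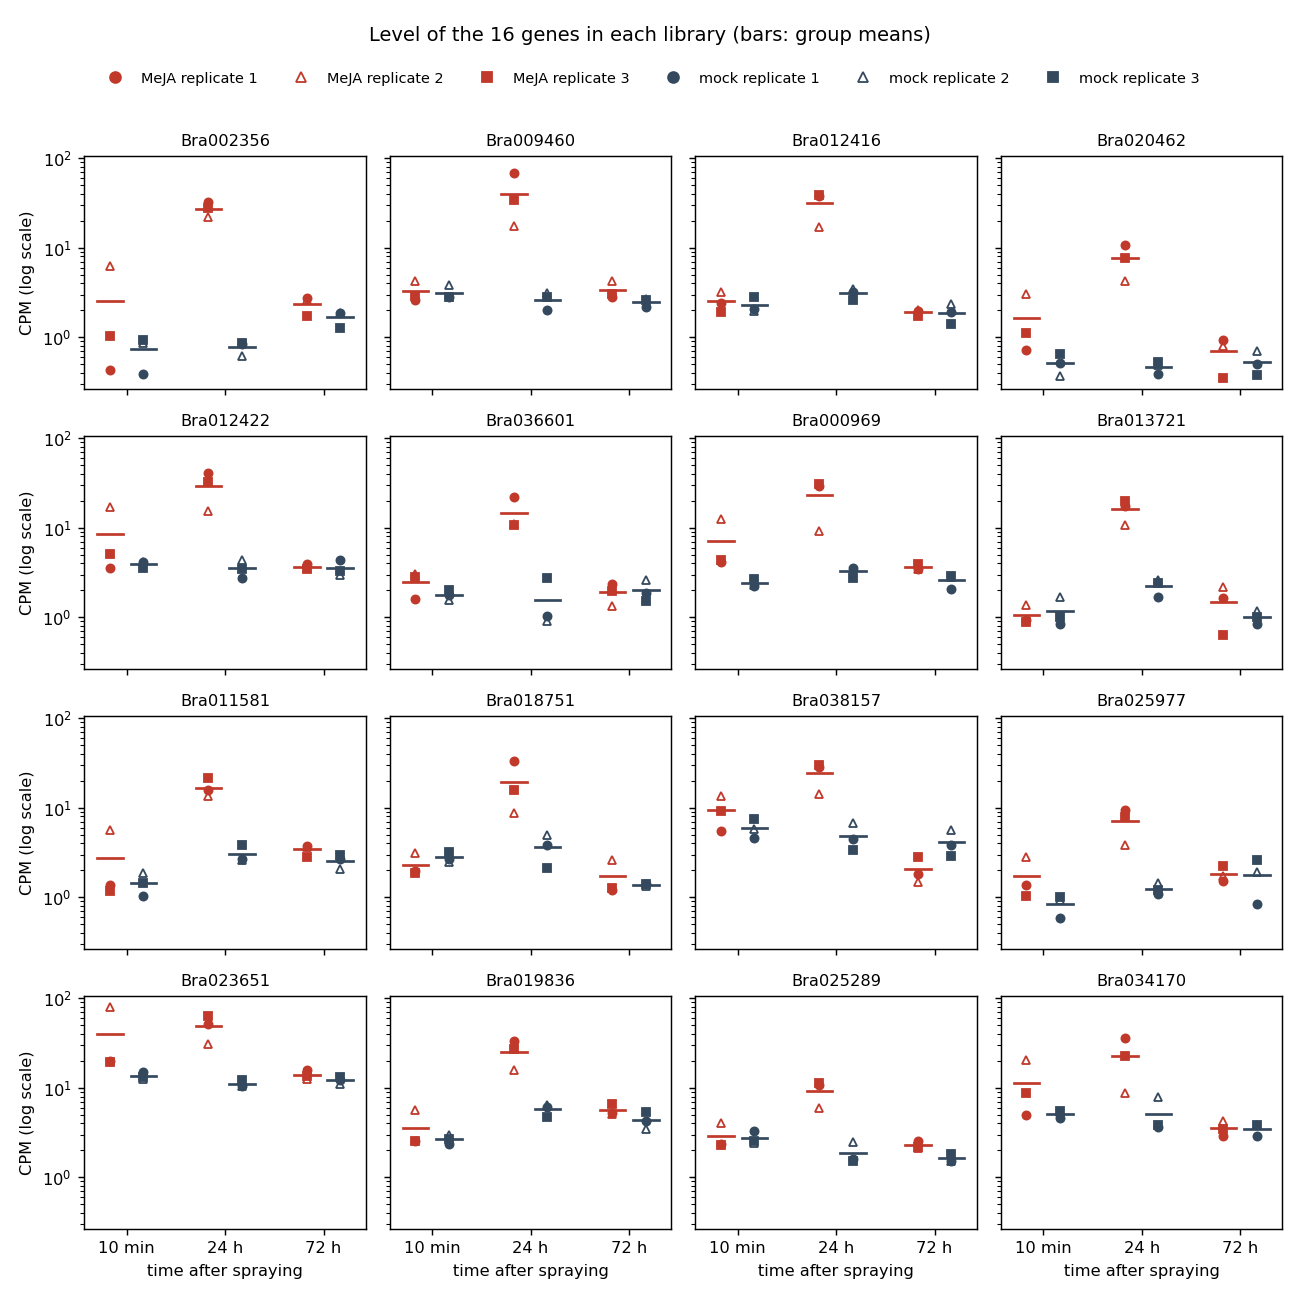
CPM on a log axis for each of the 16 genes, by time after spraying. Points are libraries, MeJA in red to the left of mock in blue at each time, with replicate 2 as open triangles, and bars are group means. Every MeJA 24 h value lies above every mock 24 h value, and MeJA 72 h and mock 72 h values overlap in 12 of the 16 genes. Among features tested, all MeJA values lie above all mock values in 14.1% at 24 h. At 72 h they lie above in 19.2% and below in 13.7%. The selection used both contrasts, so nothing is read from these counts.

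Bra002356 showed the largest ratio at 24 h. Its level was 32.2, 22.0 and 28.1 CPM in MeJA 24 h, against 0.842, 0.623 and 0.868 CPM in mock 24 h. The groups were far apart, and the MeJA mean of 27.5 ± 5.13 CPM was 35.3 times the mock mean of 0.778 ± 0.135 CPM (SD, n = 3 each), a log2 ratio of 4.45. By 72 h it stood at 2.73, 2.64 and 1.74 CPM with MeJA, against 1.85, 1.88 and 1.27 CPM with mock. The 72 h groups overlapped, and the ratio of their means was 1.42. The mock mean itself was higher at 72 h, at 1.67 ± 0.346 CPM, than at 10 min, at 0.732 ± 0.297 CPM, or at 24 h.

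Bra009460 had the second largest log2 ratio at 24 h, 3.69. Its level was 68.3, 17.6 and 33.8 CPM in MeJA 24 h, against 2.01, 3.11 and 2.80 CPM in mock 24 h. MeJA replicate 1 was highest and replicate 2 lowest, and the log2 ratio was 3.06 without MeJA replicate 1 and 4.04 without MeJA replicate 2. At 72 h the values were 2.85, 4.31 and 3.08 CPM with MeJA, against 2.19, 2.70 and 2.60 CPM with mock. The 72 h groups did not overlap, yet the means differed by only 1.37 times. The gene stood at 17.6 to 68.3 CPM in MeJA 24 h and between 2.01 and 4.31 CPM in the other 15 libraries.

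Bra012416 and Bra020462 were the other genes with a log2 ratio of at least 3 at 24 h. Bra012416 was at 38.2, 17.3 and 39.3 CPM in MeJA 24 h, against 3.24, 3.46 and 2.60 CPM in mock 24 h. It dropped furthest between the MeJA groups, with a MeJA 24 h mean 16.5 times the MeJA 72 h mean, and at 72 h it averaged 1.91 ± 0.145 CPM in MeJA leaves and 1.88 ± 0.477 CPM in mock leaves (SD, n = 3 each). Bra020462 was the gene with the fewest reads in mock, at 10.9, 4.22 and 7.79 CPM in MeJA 24 h, against 0.389, 0.484 and 0.534 CPM in mock 24 h. Its 72 h groups overlapped, averaging 0.694 ± 0.306 CPM in MeJA leaves and 0.530 ± 0.163 CPM in mock leaves.

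Bra023651 had the most reads of the 16 genes, both in MeJA 24 h and over the mock libraries. Its level was 52.1, 30.6 and 63.9 CPM in MeJA 24 h, against 10.4, 10.5 and 12.2 CPM in mock 24 h. The means were 48.9 ± 16.9 CPM and 11.1 ± 1.004 CPM (SD, n = 3 each), a ratio of 4.42 and a log2 ratio of 2.09. Without MeJA 24 h replicate 3 the log2 ratio was 1.86. At 72 h the values were 15.8, 12.4 and 13.5 CPM with MeJA, against 12.1, 11.1 and 13.1 CPM with mock. These groups overlapped, and the mock mean varied by 1.23 times over the 3 times.

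Bra012422, Bra036601, Bra000969 and Bra013721 had log2 ratios between 2.5 and 3 at 24 h. Their MeJA 24 h means were 29.6 ± 12.9, 14.8 ± 6.57, 23.4 ± 12.2 and 16.2 ± 4.82 CPM, and their mock 24 h means were 3.52 ± 0.820, 1.56 ± 1.02, 3.25 ± 0.451 and 2.24 ± 0.493 CPM (SD, n = 3 each). Bra036601 had 1 mock 24 h value, 2.74 CPM in replicate 3, well above the other mock values of 1.04 and 0.900 CPM. Its log2 ratio was 2.89, with 3.38 without that library and 2.48 without MeJA replicate 1.

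These 4 genes differed in which MeJA 24 h library was highest. Bra012422 stood at 41.0, 15.6 and 32.3 CPM in MeJA 24 h, against 2.72, 4.36 and 3.47 CPM in mock 24 h. Its MeJA and mock groups met again at 72 h, with 3.95, 3.56 and 3.49 CPM in MeJA 72 h, against 4.38, 2.99 and 3.29 CPM in mock 72 h. The 72 h values were interleaved, and the ratio of their means was 1.03. Bra000969 stood at 29.7, 9.30 and 31.2 CPM in MeJA 24 h, against 3.56, 3.46 and 2.74 CPM in mock 24 h. MeJA replicates 1 and 3 were alike and replicate 2 was at 30.6% of their mean. Bra013721 stood at 17.7, 10.8 and 20.1 CPM in MeJA 24 h, against 1.68, 2.63 and 2.40 CPM in mock 24 h. Its MeJA libraries were the closest to each other of these 4 genes, with a coefficient of variation of 29.7%. Bra036601 stood at 22.4, 11.1 and 10.9 CPM in MeJA 24 h, with replicate 1 alone high.

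The remaining genes, Bra011581, Bra018751, Bra038157, Bra025977, Bra019836, Bra025289 and Bra034170, had log2 ratios between 2.04 and 2.29 at 24 h. Bra034170 was the gene nearest to the limit of 2. Its level was 36.3, 8.84 and 22.8 CPM in MeJA 24 h, against 3.69, 7.82 and 3.87 CPM in mock 24 h. MeJA replicate 2 lay only just above mock replicate 2, and the log2 ratio was 1.54 without MeJA replicate 1. Bra018751 likewise rested on MeJA replicate 1, with 33.3, 8.65 and 15.8 CPM in MeJA 24 h, against 3.89, 4.91 and 2.14 CPM in mock 24 h. Its log2 ratio of 2.25 was 1.62 without that library.

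Bra011581 and Bra019836 had spreads that differed at 24 h. Bra011581 stood at 15.7, 13.5 and 21.3 CPM in MeJA 24 h, against 2.66, 2.63 and 3.80 CPM in mock 24 h. Bra019836 stood at 33.6, 15.6 and 27.1 CPM in MeJA 24 h, against 6.16, 6.51 and 4.67 CPM in mock 24 h. The log2 ratio of Bra011581 was at least 2.09 as each 24 h library was left out, whereas that of Bra019836 was 1.80 without MeJA replicate 1. Both genes had a higher MeJA mean than mock mean at 72 h. In Bra011581 it was 3.44 ± 0.510 CPM with MeJA, against 2.58 ± 0.474 CPM with mock, and in Bra019836 it was 5.62 ± 0.826 CPM with MeJA, against 4.35 ± 0.934 CPM with mock (SD, n = 3 each). The 72 h values overlapped in both.

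Bra025977 and Bra025289 were among the genes with the fewest reads in MeJA 24 h. Bra025977 stood at 9.54, 3.83 and 7.96 CPM in MeJA 24 h, against 1.10, 1.45 and 1.201 CPM in mock 24 h. Its MeJA 24 h mean of 7.11 ± 2.95 CPM was the lowest of the 16, and the log2 ratio was 1.87 without MeJA replicate 1. Bra025289 stood at 10.7, 6.01 and 11.3 CPM in MeJA 24 h, against 1.62, 2.49 and 1.53 CPM in mock 24 h. Its log2 ratio was 1.89 without MeJA replicate 3. At 72 h Bra025977 had a wide mock spread, at 1.51, 1.72 and 2.21 CPM in MeJA 72 h, against 0.843, 1.94 and 2.60 CPM in mock 72 h.

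MeJA 24 h replicate 2 was the lowest of its group in 15 of the 16 genes, the exception being Bra036601. Its level was 29.9% to 73.1% of the mean of replicates 1 and 3, with a median of 47.3%. It was also the lowest MeJA 24 h library in 79.3% of the 217 genes still higher at 72 h, and in 38.4% of the 26522 tested Bra genes. The highest value lay in replicate 1 in 9 genes and in replicate 3 in 7. The coefficient of variation over the 3 MeJA 24 h libraries had a median of 40.4% in the 16 genes, 26.8% in the 217 and 16.2% over all tested Bra genes. In mock 24 h these medians were 21.8%, 27.3% and 12.9%. What set MeJA 24 h replicate 2 below its group was not tested, a mixing of libraries included.

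**Figure D2:**
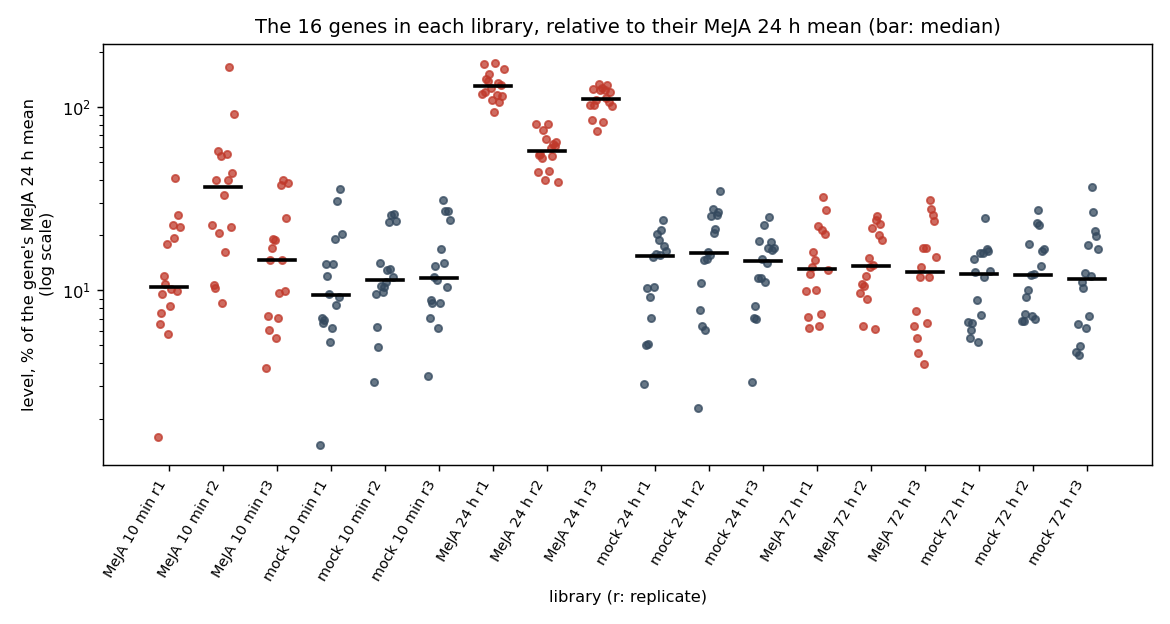
Level of each of the 16 genes in each of the 18 libraries, as a percentage of that gene's mean over the MeJA 24 h libraries, on a log axis. Points are genes and black bars are medians. The MeJA 24 h medians are 129%, 57.4% and 111%, MeJA 10 min replicate 2 has a median of 36.5%, and the medians of the other 14 libraries lie between 9.36% and 15.9%.

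By 72 h little of the 24 h difference was left. The difference between the MeJA and mock means at 72 h was -10.8% to 9.05% of that at 24 h, with a median of 2.38%. The MeJA 24 h mean was 3.52 to 16.5 times the MeJA 72 h mean, with a median of 7.94 times. The log2 ratio at 72 h was below 0 in 2 genes, between 0 and 0.25 in 7 and between 0.25 and 0.5 in 7. MeJA and mock values overlapped in 12 genes, all 3 MeJA values lay above all mock values in 3 genes (19.2% of features tested) and below them in 1 gene (13.7% of features tested). The selection used this contrast too, so nothing is read from these counts.

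The 3 genes whose MeJA values still lay above mock at 72 h were Bra009460, Bra000969 and Bra025289. Bra000969 was at 3.43, 3.50 and 3.95 CPM with MeJA, against 2.08, 2.82 and 2.91 CPM with mock. Bra025289 was at 2.56, 2.12 and 2.21 CPM with MeJA, against 1.52, 1.52 and 1.84 CPM with mock. Their log2 ratios of 0.41 and 0.40 were close to the limit of 0.5.

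Bra038157 was the gene whose MeJA values all lay below mock at 72 h. It stood at 28.3, 14.4 and 30.1 CPM in MeJA 24 h, against 4.54, 6.71 and 3.40 CPM in mock 24 h. At 72 h it stood at 1.80, 1.49 and 2.85 CPM with MeJA, against 3.88, 5.63 and 2.91 CPM with mock. The lowest mock value and the highest MeJA value nearly met, and the means of 2.05 ± 0.711 CPM and 4.14 ± 1.38 CPM (SD, n = 3 each) gave a log2 ratio of -0.86. It ran from -1.11 to -0.61 as each 72 h library was left out. The other gene with a log2 ratio below 0 was Bra036601, at -0.07, with 2.38, 1.32 and 1.98 CPM with MeJA, against 1.85, 2.64 and 1.52 CPM with mock.

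**Figure D3:**
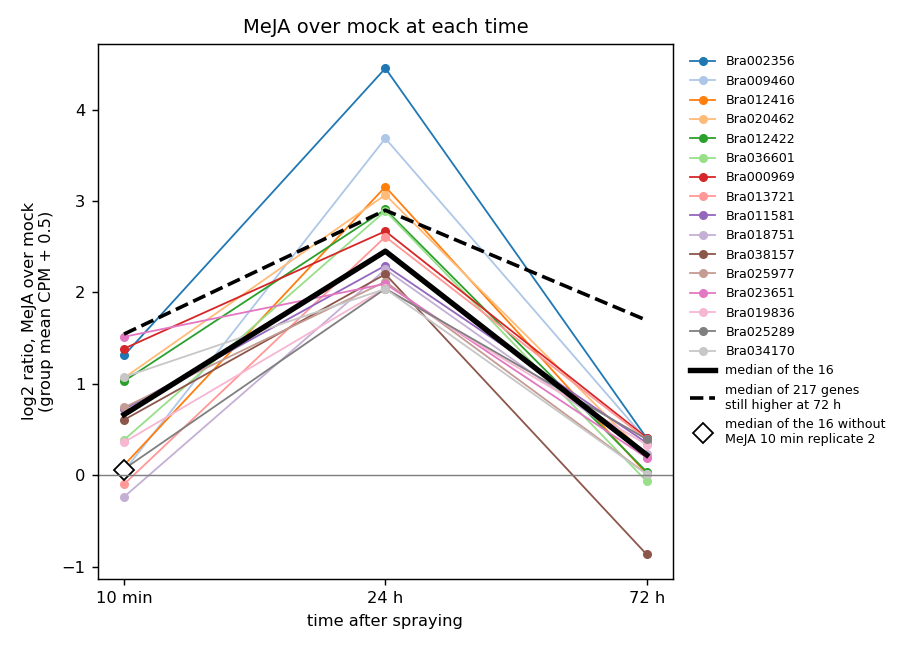
Log2 ratio of MeJA over mock at each of the 3 times for the 16 genes, with their median (thick line) and the median of the 217 genes still higher at 72 h (dashed line). The median of the 16 is 0.66 at 10 min, 2.45 at 24 h and 0.22 at 72 h. The open diamond gives the 10 min median without MeJA replicate 2, 0.06. Over all tested Bra genes that median was also 0.06.

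The mock means of the 16 genes varied less over time than their MeJA means. The largest of the 3 mock means was 1.12 to 2.64 times the smallest, with a median of 1.56, and at least 2 times in 6 genes. The largest mock mean was that of 10 min in 6 genes, of 24 h in 6 and of 72 h in 4. Bra018751 varied most, at 2.80 ± 0.386 CPM in mock 10 min, 3.65 ± 1.40 CPM in mock 24 h and 1.38 ± 0.0296 CPM in mock 72 h (SD, n = 3 each). Bra012422 varied least, at 3.93 ± 0.360, 3.52 ± 0.820 and 3.56 ± 0.732 CPM in mock 10 min, 24 h and 72 h. Mock means entered the selection, so these values were not tested. The selection also asked for a ratio high at 24 h and low at 72 h. Nothing is therefore read from mock means varying less than MeJA means.

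At 10 min most of the 16 genes were not separated from mock. The selection did not use this contrast, apart from counting mock 10 min toward the floor of 0.5 CPM, which all 16 genes also met in mock 72 h. The edgeR quasi-likelihood test on the whole table called 2 of the 16 higher with MeJA, against 4.69% of all 26593 features, and 0 lower, against 2.43%. At an unadjusted p under 0.05, 7 genes were higher and 0 lower, against 12.3% and 10.3% of features. DESeq2's Wald test called 3 higher and 0 lower, against 5.42% and 3.34% of the features to which it gave an adjusted p. Both edgeR calls were lost without MeJA replicate 2, in which transcripts abundant in MeJA 24 h stood higher. Without this library, edgeR called 0 of the 16 genes in either direction, against 1.24% higher and 0.286% lower among 26946 features, and 0 had an unadjusted p under 0.05 in either direction, against 8.42% higher and 6.87% lower. The median fitted log2 fold change of the 16 genes was 0.71 with all libraries and -0.01 without MeJA replicate 2, beside a median over all features of -0.01 in both fits.

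Bra023651 was the first of the genes called at 10 min. It stood at 19.9, 80.0 and 19.5 CPM with MeJA, against 14.9, 12.6 and 13.2 CPM with mock. Replicate 2 was higher than any MeJA 24 h library, and replicates 1 and 3 also lay above all mock values. The fitted log2 fold change was 1.48 (SE 0.40; edgeR adjusted p = 0.0340), and 0.46 (SE 0.22; edgeR adjusted p = 0.329) without MeJA replicate 2. The call was also lost without any 1 of the mock 10 min replicates, at adjusted p from 0.0701 to 0.128. With the 10 min libraries fitted alone, the edgeR adjusted p was 0.115 with MeJA replicate 2 and 0.0388 without it.

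Bra000969 was the other gene called at 10 min. It stood at 4.19, 12.6 and 4.37 CPM with MeJA, against 2.22, 2.30 and 2.66 CPM with mock. All 3 MeJA values lay above mock, with replicate 2 highest. The fitted log2 fold change was 1.496 (SE 0.44; edgeR adjusted p = 0.0492), and 0.77 (SE 0.40; edgeR adjusted p = 0.377) without MeJA replicate 2. Leaving out any 1 mock 10 min replicate also ended this call, at adjusted p from 0.122 to 0.152. Over all alternatives, the adjusted p ran from 0.00690 to 0.329 for Bra023651 and from 0.00747 to 0.377 for Bra000969.

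The other 14 genes had fitted log2 fold changes between -0.34 and 1.75 at 10 min and edgeR adjusted p from 0.0763 to 0.986. The value of 1.75 (SE 0.65; edgeR adjusted p = 0.114) belonged to Bra002356, which stood at 0.434, 6.21 and 1.04 CPM with MeJA, against 0.392, 0.871 and 0.934 CPM with mock. Its MeJA replicate 2 alone was high, and without it the fitted log2 fold change was -0.06. Bra020462 was at 0.723, 3.03 and 1.11 CPM with MeJA, against 0.522, 0.373 and 0.646 CPM with mock, and had the adjusted p of 0.0763. Its fitted log2 fold change of 1.60 was 0.76 without MeJA replicate 2. It was the gene that DESeq2 called in addition, at an adjusted p of 0.0467.

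Among the genes not called, Bra012422, Bra034170 and Bra011581 had a high MeJA replicate 2 at 10 min. Bra012422 stood at 3.54, 17.1 and 5.03 CPM with MeJA, against 4.11, 4.17 and 3.52 CPM with mock. Bra034170 stood at 4.99, 20.6 and 8.66 CPM with MeJA, against 4.57, 5.41 and 5.46 CPM with mock. Bra011581 stood at 1.37, 5.59 and 1.18 CPM with MeJA, against 1.04, 1.87 and 1.44 CPM with mock. In all 3 genes MeJA replicate 2 was far above every mock value, and MeJA replicate 1 lay within the range of mock. MeJA replicate 3 also lay above every mock value in Bra012422 and Bra034170, and within the range of mock in Bra011581. Bra018751 was at the other end, at 1.95, 3.10 and 1.85 CPM with MeJA, against 2.68, 2.49 and 3.23 CPM with mock. Its log2 ratio of the means was -0.24, the lowest of the 16 genes at 10 min. Bra038157 stood at 5.50, 13.4 and 9.11 CPM with MeJA, against 4.64, 5.73 and 7.54 CPM with mock, and here MeJA replicate 3 was also above mock.

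**Figure D4:**
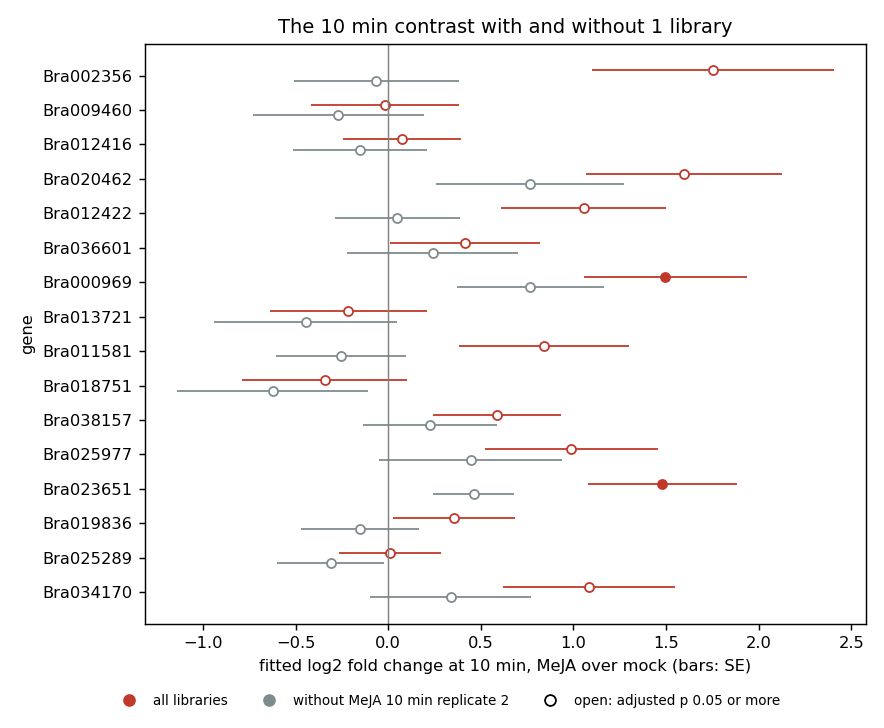
Fitted log2 fold change of MeJA over mock at 10 min for each of the 16 genes, with all libraries (red) and without MeJA 10 min replicate 2 (grey). Bars are standard errors, and filled points have an edgeR adjusted p under 0.05. With all libraries 2 genes are called higher, against 4.69% of all features, and without that library 0, against 1.24%.

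MeJA 10 min replicate 2 was the highest of the 3 MeJA libraries in all 16 genes and above every mock 10 min value in 14. It was at least 3 times the mean of replicates 1 and 3 in 6 genes (Bra002356, Bra011581, Bra023651, Bra012422, Bra020462 and Bra034170), between 2 and 3 times in 3 genes and under 2 times in 7. All 3 MeJA values lay above all mock values in 4 genes, Bra020462, Bra000969, Bra025977 and Bra023651, and below them in 0, against 20.2% and 9.68% of features tested. Without replicate 2 these counts were 4 and 2, against 25.7% and 13.1%. The log2 ratio of the means at 10 min was above 0 in 14 genes, and in 9 without replicate 2. It was at least 1 in 6 genes, and in 0 without replicate 2. Its median was 0.66 in the 16 genes and 0.05 over all tested Bra genes. Without replicate 2 the median was 0.06 in both. No share over all features was computed for replicate 2 being highest, above mock or several times the other replicates. None was computed for the log2 ratios above 0 or at least 1 either. Nothing particular to the 16 genes is read from those counts.

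The level of these genes in MeJA 10 min replicate 2 was uneven. Its excess over the mock 10 min mean, as a percentage of the difference between the MeJA and mock means at 24 h, ran from 1.44% in Bra013721 to 176% in Bra023651, with a median of 25.3%. The excess was above 4.32%, the median level of the 20 genes that were near silent in mock 10 min, in 12 genes and at or below it in 4, although that level is a percentage of the MeJA 24 h mean and not of the difference. In replicates 1 and 3 the median excess was -1.01% and 2.23%. In Bra012422, Bra000969, Bra023651 and Bra034170, MeJA 10 min replicate 2 exceeded the lowest MeJA 24 h value. In the other 12 genes every MeJA 24 h value lay above the 15 values of the other groups. The selection asked for a high MeJA 24 h mean, so nothing is read from this count. Its share over all features was not computed. Whether material or reads of MeJA 24 h entered MeJA 10 min replicate 2 was not tested. The 10 min values of replicate 2 are to be read with that limit.

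The 217 genes that met the same conditions at 24 h but kept a log2 ratio of at least 1 at 72 h were set beside the 16 at 10 min. With all libraries, 2 of the 16 genes (12.5%) and 151 of the 217 (69.6%) were called higher by edgeR, against 4.69% of all features. In either set 0 were called lower, against 2.43% of all features. Without MeJA 10 min replicate 2, 0 of the 16 and 63 of the 217 (29.0%) were called higher, against 1.24% of all features. The median fitted log2 fold change was 0.71 in the 16 and 1.62 in the 217, and -0.01 and 0.95 without MeJA replicate 2. The sets also differed in reads, with median MeJA 24 h means of 23.0 and 94.7 CPM and median mock 10 min means of 2.53 and 4.78 CPM. The difference between the sets was not tested.

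**Figure D5:**
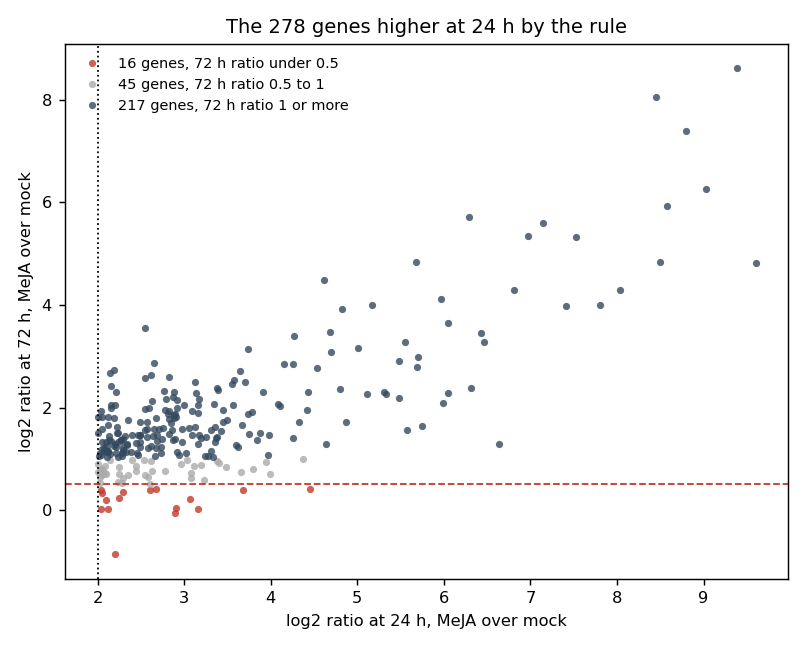
Log2 ratio of MeJA over mock at 24 h (horizontal) and at 72 h (vertical) for the 278 genes that met the conditions at 24 h. Each point is a gene, the dotted line is the limit of 2 at 24 h and the dashed line the limit of 0.5 at 72 h. The 16 genes lie below the dashed line, and the 217 genes with a 72 h log2 ratio of at least 1 lie above them.

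Genes lay close to the limits on the log2 ratios, on both sides. The smallest log2 ratios at 24 h inside the limit were 2.040 and 2.041, and the largest outside it, among genes that met the other conditions, were 1.93 and 1.90. The largest log2 ratios at 72 h inside were 0.412 and 0.408, and the smallest outside were 0.503 and 0.525. The lowest MeJA 24 h means inside were 7.11 and 7.62 CPM, and 0 genes were left out by the limit of 5 CPM alone. The limit on mock levels left out 7 genes, the nearest with a highest mock mean of 0.312 CPM, against 0.530 CPM for Bra020462 inside it.

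None of the 16 identifiers had a number next to that of another of the 16, and the closest were Bra012416 and Bra012422, 6 apart. Of 32 identifiers numbered 1 below or above one of the 16, 2 had a log2 ratio of at least 1 at 24 h, against 2.88% of all 41018 Bra identifiers. One was Bra002355, beside Bra002356, at 94.7 CPM in MeJA 24 h and 12.9 CPM in mock 24 h, with a log2 ratio of 1.77 at 72 h. The other was Bra009459, beside Bra009460, at 207 CPM in MeJA 24 h and 67.6 CPM in mock 24 h, with a log2 ratio of 0.46 at 72 h. What the numbering stands for is not given in the sources used here.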

How the data were processed

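The authors deposited whole-number read counts per gene, not normalised, from stranded paired-end mRNA libraries. FastQC, TopHat2, HTSeq and edgeR were used, per the submitters' processing notes. The sources used here give no versions, genome build, annotation or strand setting, so counts of near-identical or overlapping genes are uncertain. All 18 value columns were matched to samples by title. Of the 51589 genes of the RefSeq table of CAAS_Brap_v3.01, 0 carried the identifier of any of the 16 genes, so gene lists by name were not used.

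From the counts, CPM and log2 ratios were computed on library totals (Python 3.11.15, pandas 2.3.3). The 10 min contrast was fitted with edgeR 4.0.16 in R 4.3.3 on all features after filterByExpr (26593 left), with TMM scaling, 1 mean per group and quasi-likelihood tests over all 18 libraries. Calls needed an adjusted p (Benjamini-Hochberg) under 0.05. SE was taken from the fold change and F statistic. DESeq2 1.42.0 was an alternative. For each pair of replicates a chi-square was summed over genes of 10 counts or more.

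The genes, the comparison set and the list of 20 genes were chosen with earlier results of these data known. The naming rule took the 2 largest ratios at 24 h, the 2 lowest at 72 h, the 2 highest means in MeJA 24 h and in mock, and the genes called at 10 min. The other genes are named so that all 16 are accounted for.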

Additional observations from a re-analysis of the deposited data

Results flagged for a closer look

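Bra038157 lay above mock in all 3 MeJA libraries at 24 h and below mock in all 3 at 72 h, where its log2 ratio was -0.86. The selection fixed that the ratio was high at 24 h and under 0.5 at 72 h, and the difference between the times was not tested. With 3 libraries a group, no test for an outlying library was made.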

How the results depend on the processing

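The number of genes that met the selection rule was 15 with a pseudocount of 0.1 CPM and 15 with 1 CPM. Of these, 15 and 12 were among the 16 genes. The number was 20 with TMM-scaled CPM, 40 with a log2 ratio of at least 1.5 at 24 h and 2 with a 72 h limit of 0. Leaving out each of 15 libraries in turn gave 11 to 21 genes, and 8 of the 16 genes were kept in every case. The count of 11 came without MeJA 24 h replicate 1. The log2 ratio at 24 h fell under 2 without some 24 h library in 6 genes, and that at 72 h reached 0.5 without some 72 h library in 2. Those 2 genes were Bra002356 and Bra013721. The 2 calls of higher levels at 10 min (4.69% of all features) were 1 with DESeq2's size factors (4.60%), 0 with the 10 min libraries alone (3.64%), 0 at an adjusted p under 0.01 (1.30%) and 0 with a replicate block (3.78%). As single libraries were left out they were 0 to 4, with 4 without MeJA replicate 1 (3.69%), 3 without MeJA replicate 3 (6.40%), and 0 without MeJA replicate 2 (1.24%) or mock replicate 1 (3.47%), 2 (1.02%) or 3 (1.24%). With the 10 min libraries alone and without MeJA 10 min replicate 2, a setting chosen after seeing the data, 1 gene was called, Bra023651 (3.92% of features). Scaling by library totals called 6.60% of features higher and 1.11% lower, against 4.69% and 2.43% with TMM, and called 2 of the 16 genes. The count called lower was 0 in all alternatives. The labels share replicate numbers, but libraries of the same number did not deviate together consistently (correlations of MeJA with mock from -0.215 to 0.287). The best correlation with another number was higher in some cases, as for MeJA 24 h replicate 1 (0.239, against -0.007 with its own number). It was lower in others, as for MeJA 72 h replicate 1 (-0.127, against 0.287). Whether the numbers mark pairs is therefore not settled.

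Signs of uncalled genes at 10 min changed in some alternatives, and the cause was not tested. With the 10 min libraries alone and without MeJA replicate 2, the fitted log2 fold change was -0.043 for Bra002356, -0.14 for Bra012416, -0.23 for Bra011581, -0.13 for Bra019836 and -0.29 for Bra025289. For Bra009460 it was 0.054 on library totals and 0.0048 with the 10 min libraries alone. Leaving out single libraries gave ranges of -0.064 to 2.25 for Bra002356, -0.27 to 0.14 for Bra009460, -0.15 to 0.22 for Bra012416, -0.45 to 0.14 for Bra013721, -0.26 to 1.19 for Bra011581, -0.15 to 0.56 for Bra019836 and -0.31 to 0.20 for Bra025289. The median log2 ratio of the 16 genes ran from 2.38 to 2.71 at 24 h and from 0.13 to 0.29 at 72 h as each library of the time was left out. With 6.75 to 8.90 counts per 0.5 CPM, the lowest values carry wide counting error.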
